A study of Homo sapiens with 6 samples.

Results

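The 10 keratin genes described here are KRT7, KRT8, KRT18 and KRT19 (keratins of simple epithelia), KRT5, KRT6A, KRT15 and KRT17 (keratins of basal and activated stratified epithelia), KRT81 (a hair keratin) and KRT80 (a type II keratin found in many epithelia). They were chosen by name from the 57445 genes of a table of raw RNA-seq read counts. Of the 10, 8 had enough counts to be tested, among 17129 genes tested in all; KRT5 and KRT17 were too low to read.

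RNA was sequenced from the human lung cancer line H358, an established non-small cell line, in 3 groups of 2 libraries. The parental line carries wild-type BRMS1 (WT), a metastasis suppressor that works in histone deacetylase complexes. Clones C1 and C2 are labelled isogenic and homozygous for A273V in BRMS1v2, and all groups grew in RPMI with 10% FBS. Each clone is 1 clone, how it was made is not given in the sources used here, and nothing says that the 2 libraries of a group are separate cultures, so p-values measure only the spread between these libraries.

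Keratins form the intermediate filaments of epithelial cells. Each filament is built from pairs of 1 type I chain (here KRT18, KRT19, KRT15 and KRT17) and 1 type II chain (KRT7, KRT8, KRT5, KRT6A, KRT80 and KRT81), and unpaired chains are degraded. Simple epithelia, such as the alveolar lining and the adenocarcinomas that arise from it, make mainly KRT7, KRT8, KRT18 and KRT19, while basal cells of stratified epithelia make KRT5, KRT14, KRT15 and KRT17 and KRT6A is made on wounding.

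The libraries held 27527867 to 37146270 gene counts, and reads aligned to more than 1 place made up 6.77% to 7.56% of the reads listed. Epithelial markers stood at 5776 to 8124 CPM (counts scaled to library size) in sum, with all 10 of 10 tested. They include KRT8, KRT18 and KRT19, so this sum is not independent of the keratins described here. Alveolar markers stood at 93.1 to 184 CPM with 6 of 9 tested, most of it NKX2-1 (65.1 to 155 CPM). The surfactant genes SFTPB, SFTPC and SFTPA1 held at most 4 counts in any library. SFTPA2 and SFTPD reached at most 0.774 and 0.468 CPM. The secretory and ciliated markers stood at 43.6 to 122 CPM with 3 of 7 tested (MUC5B, MUC5AC and FOXJ1). SCGB1A1, SCGB3A1 and BPIFA1 had 0 counts in every library. Proliferation genes were lower in replicate 2 than in replicate 1 of every group, with a median log2 difference of -2.14 over 25 genes. By call 6 of the 25 fell, where 2088 of all 17129 genes fell and 24.7% were called in either direction. Same-numbered libraries also deviated together across genes. Each comparison is therefore given without and with the replicate number as a block, and calls are at an adjusted p below 0.05. Where 1 library is left out, its group holds 1 library and adds no spread of its own. Calls gained or lost in such fits show only how results depend on single libraries.

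H358 cells were dominated by simple keratins in all 3 groups. KRT7, KRT8, KRT18 and KRT19 together took 89.8% to 94.9% of the counts of the 10 keratins, and 88.1% to 91.6% of those of all coding keratin genes. The 10 keratins took 0.445% to 0.600% of all gene counts. Of the 8 tested members, the hair keratin KRT81 and the wound-associated KRT6A differed most from WT in both clones, with log2 differences of -1.34 and -1.76 in C1. Neither passed the test without the block. With the block KRT81 fell in both clones and KRT6A fell in C1, and these calls were lost when either C2 library was left out.

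**Figure D1:**
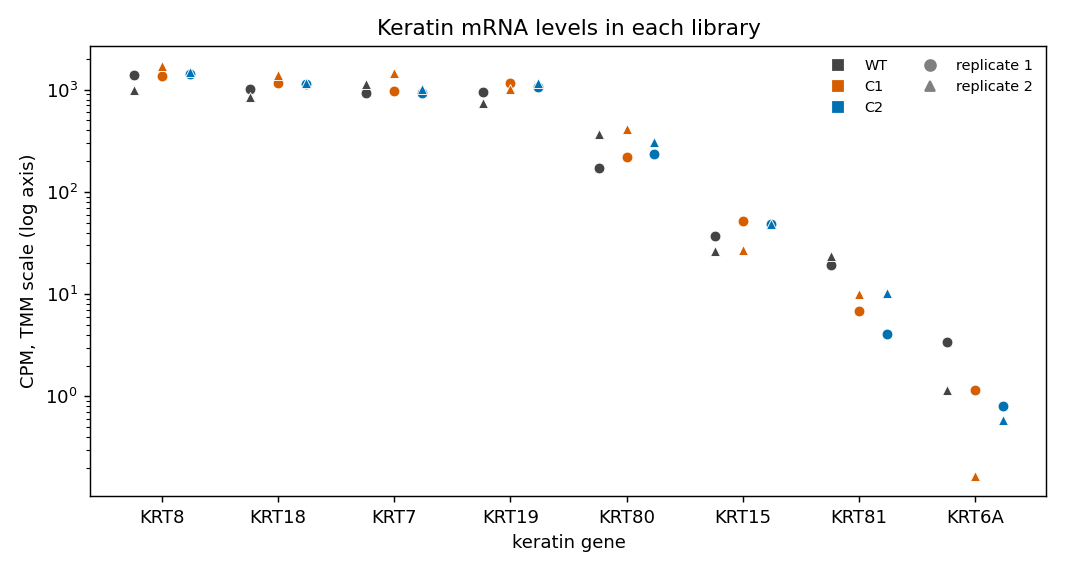
Level of each tested keratin in CPM (log axis) in the 6 libraries; colours mark WT, C1 and C2, circles replicate 1 and triangles replicate 2. The 2 WT points of KRT81 (19.1 and 23.5 CPM) lie above its 4 clone points (4.07 to 10.3), and replicate 2 of KRT80 lies above replicate 1 in each group.

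KRT8 and KRT18 are the type II and type I chains that pair with each other in simple epithelia. KRT8 stood at 1406 and 990 CPM in WT, 1366 and 1688 in the C1 pair and 1418 and 1488 in the C2 pair. The C1 libraries fell on both sides of the higher WT library, while both C2 libraries lay just above it. KRT8 differed from WT by 0.35 in C1 and 0.28 in C2 on the log2 scale, and edgeR's quasi-likelihood test gave adjusted p of 0.84 and 0.94. With the block the C1 value was 0.36 (edgeR adjusted p 0.30) and ran from 0.02 to 0.71 with 1 library left out. The blocked C2 value was 0.28 (edgeR adjusted p 0.45) and ran from -0.05 to 0.65.

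KRT18 read 1010 and 849 CPM in WT, 1150 and 1389 in the C1 pair and 1131 and 1174 in the C2 pair. All 4 clone libraries were above both WT libraries. KRT18 was 0.45 above WT in C1 (log2, SE 0.20, edgeR adjusted p 0.67) and 0.31 above it in C2 (SE 0.20, adjusted p 0.89), and passed in neither. With the replicate block the differences kept their size, and edgeR gave adjusted p of 0.10 for C1 and 0.30 for C2. Leaving out 1 library moved the blocked C1 value between 0.24 and 0.66, with 0.63 without C1 replicate 1 and 0.66 without WT replicate 1.

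KRT8 and KRT18 are neighbours on chromosome 12, and their annotated exons overlap by 525 bases. The strand setting of the counting is not given in the sources used here, and without strand reads from that stretch cannot be told apart. In the principal transcript of KRT8, 36.9% of 50-base windows occur in another gene too, most often in the pseudogene KRT8P3. For KRT18 the share was 47.6%, most often in KRT8 (21.5%). The 50 annotated KRT8 pseudogenes held counts equal to 3.06% to 4.08% of those of KRT8 itself, and the 68 KRT18 pseudogenes held 0.856% to 1.09% of those of KRT18. The ratio of KRT8 to KRT18 counts was 1.39 and 1.17 in WT, 1.19 and 1.22 in the C1 pair and 1.25 and 1.27 in the C2 pair. The clone ratios fell between the 2 WT ratios.

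KRT19, a type I keratin of ducts and simple epithelia that lacks most of the tail domain, followed KRT18. Its level was 950 and 737 CPM in WT, 1160 and 1015 in the C1 pair and 1065 and 1161 in the C2 pair. Again the 4 clone libraries lay above both WT libraries. On the log2 scale KRT19 was 0.37 above WT in C1 and 0.40 above it in C2; edgeR gave adjusted p of 0.77 and 0.84, and 0.17 and 0.15 with the block.

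KRT7, the type II keratin of ducts and glandular epithelia, stood at 935 and 1126 CPM in WT, 981 and 1446 in the C1 pair and 934 and 1014 in the C2 pair. The groups overlapped, and the difference was positive in C1 (0.24) and negative in C2 (-0.08). Neither passed the edgeR test, with adjusted p of 0.92 and 1.00. KRT7 exons share 314 bases with KRT7-AS and KRT87P, and without strand reads from that stretch cannot be told apart either.

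Levels were compared between keratins per length. In CPM per kilobase of all annotated exons, the WT means were 361 for KRT19, 289 for KRT18, 252 for KRT7 and 174 for KRT8. Per kilobase of the principal transcript, a length chosen after seeing the data because the annotated exons of KRT8 are far longer, the WT means were 607, 595, 587 and 564 in the same order. On the principal length the WT libraries of each neighbouring pair in this order overlapped, so the 4 did not differ beyond their spread in WT. In C2 no neighbours overlapped on that length, in the order KRT19, KRT18, KRT8 and KRT7, and in C1 all neighbours of the 4 overlapped. On the exon length KRT18 and KRT7 overlapped in WT and the other neighbours did not, and the order of the 4 was the same in all 3 groups. KRT80 came next, at 62.2 and 70.1 on the 2 lengths, then KRT81 at 11.1 and 11.1, KRT15 at 4.52 and 6.10, and KRT6A at 0.780 by the exon length. KRT81 was above KRT15 in WT without overlap, and below it in C2 without overlap, at 3.73 against 6.88 by the exon length; in C1, at 4.38 against 5.58, the libraries overlapped.

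**Figure D2:**
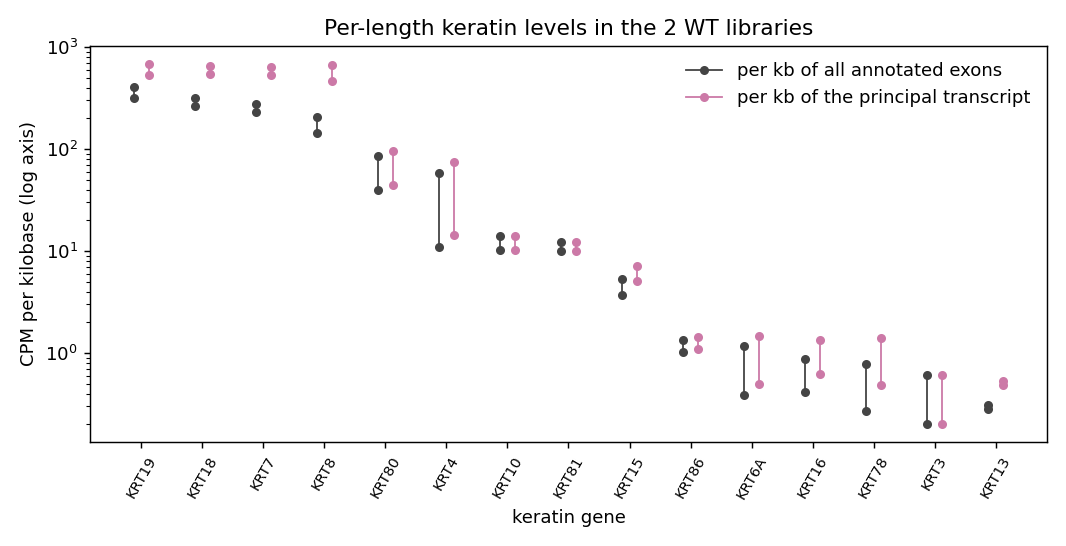
CPM per kilobase (log axis) of keratin genes in the 2 WT libraries, joined by a line, by the length of all annotated exons and by that of the principal transcript. The 4 simple keratins lead on both lengths, near 174 to 361 or near 564 to 607, and KRT6A is the lowest of the tested members, at 0.780 by the exon length.

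The balance of the chains was also followed. Summed per kilobase of all exons over the members, type II to type I levels stood at 0.666 and 0.886 in WT, 0.571 and 0.803 in the C1 pair and 0.602 and 0.622 in the C2 pair. C1 overlapped WT, both C2 libraries lay below both WT libraries, and an exact permutation test of 2 against 2 cannot give a p below 0.333. By the principal transcript length the ratios ran from 0.798 to 1.13.

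KRT80, whose product joins filaments near desmosomes in differentiating epithelia, came after the 4 simple keratins by level per length. It stood at 171 and 370 CPM in WT, 219 and 413 in the C1 pair and 232 and 306 in the C2 pair. In each group replicate 2 was above replicate 1, and the groups overlapped. C1 differed from WT by 0.22 and C2 by -0.01 on the log2 scale (edgeR adjusted p 0.97 and 1.00), or by 0.25 and 0.09 with the block. KRT80 in C2 thus changed sign with the block, at a size within its SE of 0.45 without it.

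KRT15, a type I keratin of basal and progenitor cells, was the basal keratin of the list with the most counts, 787 to 1826 per library. Its level was 37.4 and 26.5 CPM in WT, 51.6 and 27.2 in the C1 pair and 48.3 and 49.0 in the C2 pair. The C2 libraries lay above both WT libraries, while the C1 libraries lay on either side of the higher WT library. KRT15 differed from WT by 0.30 (log2, SE 0.34) in C1 and by 0.61 (SE 0.34) in C2, and edgeR gave adjusted p of 0.93 and 0.85. With the block the C2 difference was 0.65, and edgeR gave an adjusted p of 0.11.

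KRT6A, a type II keratin induced in wounded and hyperproliferative epithelia, was low in all libraries. It had 107 and 34 counts in WT, 41 and 5 in the C1 pair and 23 and 19 in the C2 pair, or 3.42 and 1.14, 1.16 and 0.167, and 0.807 and 0.588 CPM. Both C2 libraries were below both WT libraries, while C1 replicate 1 was level with the lower WT library. KRT6A differed from WT by -1.76 (log2, SE 0.90) in C1 and by -1.71 (SE 0.90) in C2, and edgeR gave adjusted p of 0.72 and 0.84. With the block it was -1.85 (SE 0.45, edgeR adjusted p 0.029) in C1 and -1.55 (SE 0.46, adjusted p 0.078) in C2. Within replicate numbers both clones were lower than WT at each number, C1 by log2 differences of -1.51 and -2.39. The blocked call in C1 was lost without C1 replicate 2 (adjusted p 0.059), without WT replicate 1 (0.091) and without either C2 library (0.11). Leaving out 1 library moved the blocked C2 difference between -2.29 and -0.73.

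KRT6A counts cannot be split from its copies with certainty. Its coding sequence matches that of KRT6B at 97.5% and of KRT6C at 97.9% of positions, and 39.1% of the 50-base windows of its principal transcript occur in another gene. The table lists 11 counts of KRT6B and 3 of KRT6C over all 6 libraries. The stretches below, from the coding sequences of GENCODE 29 at coding bases 410 to 459, are shown because they hold the earliest 50-base window with 3 or more differences. Capitals mark positions where the copies differ.

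KRT6A: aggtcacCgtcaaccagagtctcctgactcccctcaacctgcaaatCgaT
KRT6B: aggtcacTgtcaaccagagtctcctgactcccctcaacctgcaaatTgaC
KRT6C: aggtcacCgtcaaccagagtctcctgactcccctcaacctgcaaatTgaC

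The first 50 coding bases of KRT6A, KRT6B and KRT6C are the same, so a read that lies there maps to all 3 genes unless its mate lies elsewhere.

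KRT5 and KRT17 could not be read. KRT5, the type II keratin of basal cells, had 0 counts in both WT libraries and 1 count in each clone in all. No fold is given, since every library was at or under the floor of 3 counts. KRT17, a type I keratin of basal and injured epithelia, had 5 and 19 counts in WT, 2 and 0 in the C1 pair and 2 and 3 in the C2 pair. Summed over libraries, WT held 24 counts against 2 in C1, a depth-scaled ratio of 12.9 with an exact 95% interval of 3.19 to 112, and against 5 in C2, a ratio of 4.79 with an interval of 1.79 to 16.1. These intervals cover counting error only, and WT replicate 2 alone held 19 of the 24 counts. With no filter on low counts, the edgeR log2 difference of KRT17 was -3.54 in C1 (adjusted p 0.11), -2.21 in C2 (0.66) and -2.88 in the mean of the clones (0.046), at counts too low to read.

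KRT81 encodes a type II keratin of the hair cortex. It had 598 and 699 counts in WT, 243 and 300 in the C1 pair and 116 and 334 in the C2 pair. In CPM these were 19.1 and 23.5 in WT, 6.87 and 10.0 in the C1 pair and 4.07 and 10.3 in the C2 pair. All 4 clone libraries lay below both WT libraries, and C2 replicate 1 was the lowest. The log2 difference was -1.34 (SE 0.47, edgeR adjusted p 0.57) in C1 and -1.56 (SE 0.47, adjusted p 0.62) in C2.

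With the replicate block KRT81 fell in both clones. The log2 difference was -1.37 (SE 0.26, 95% interval -1.93 to -0.80, edgeR adjusted p 0.0078) in C1 and -1.67 (SE 0.26, interval -2.25 to -1.10, adjusted p 0.0035) in C2. Within replicate numbers C1 was lower than WT by log2 differences of -1.47 and -1.23, and C2 by -2.21 and -1.18. The C1 call was lost without either C2 library, with adjusted p of 0.054 and 0.057, and the C2 call was lost without either C2 library, with adjusted p of 0.25 and 0.16. The value itself ran from -1.66 to -1.03 in C1 and from -2.20 to -1.24 in C2 over the 6 libraries left out in turn.

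KRT81 lies beside KRT86, another type II hair keratin, on chromosome 12. KRT86 had 76 and 95 counts in WT, 51 and 55 in the C1 pair and 31 and 78 in the C2 pair. In CPM all 4 clone libraries were below both WT libraries, C2 replicate 2 (2.41) by little from WT replicate 1 (2.43), and its log2 differences of -0.78 for C1 and -0.68 for C2 did not pass the edgeR test (adjusted p 0.79 and 0.90). The ratio of KRT81 to KRT86 counts was 7.87 and 7.36 in WT, 4.76 and 5.45 in the C1 pair and 3.74 and 4.28 in the C2 pair. The clone ratios lay below both WT ratios, and an exact test cannot give a p below 0.333 for either clone.

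The coding sequences of KRT81 and KRT86, compared base by base from the first coding base without gaps, are the same at 90.5% of 1458 positions. Of the 50-base windows of the KRT81 principal transcript, 44.6% occur in another gene and 38.4% in KRT86, so their counts rest on the stretches that differ.

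**Figure D3:**
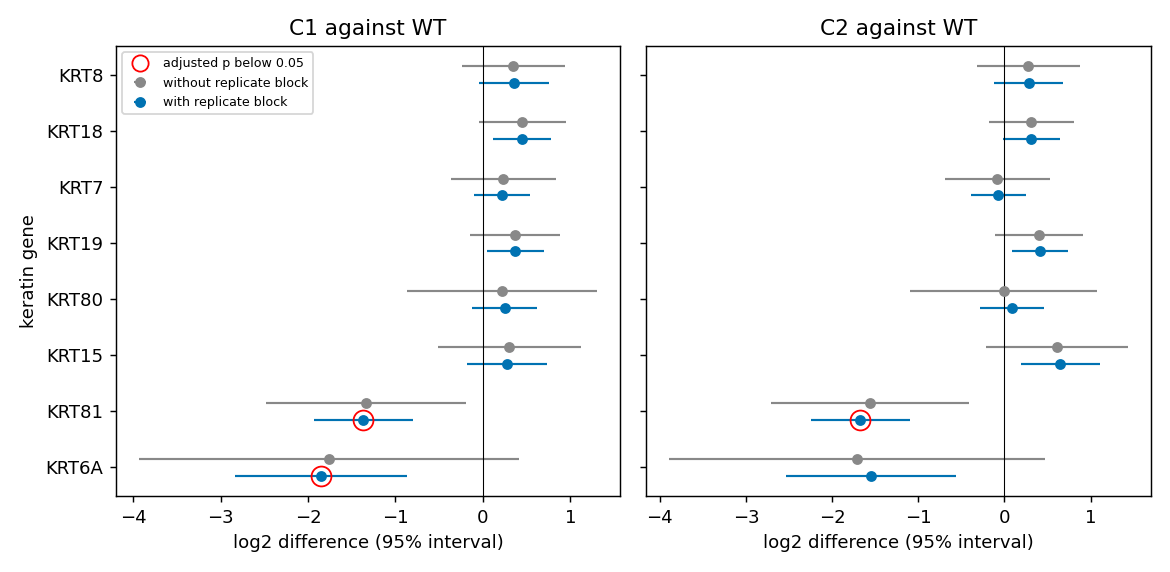
Log2 difference of each tested keratin from WT in C1 and in C2, with 95% intervals, without the replicate block (grey) and with it (blue); red rings mark adjusted p below 0.05. KRT81 at -1.37 and -1.67 and KRT6A at -1.85 in C1 are ringed, KRT6A in C2 (-1.55) is not, and the 6 other members lie between -0.08 and 0.65.

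Counted over the 8 tested members, the unblocked edgeR test called 0 in C1 and 0 in C2, where it called 0.0117% of all genes in each. At an unadjusted p under 0.05, 1 of the 8 was counted in each clone, as were 1348 genes of 17129 in C1 and 1156 in C2. DESeq2 called 0 of the 8 in either, and 270 and 209 genes. With the block 2 of 8 were called in C1 (7.03% of all genes), both lower (4.07% of all genes were), and 1 of 8 in C2 (4.54% of all genes), also lower (2.59%). The mean of the clones against WT called 0 of 8 without the block (0.198% of all genes) and 2 of 8, KRT6A and KRT81, with it (9.74%), both lower (5.63%). With the block, 6 of the 8 members were higher and 2 lower in C1, with a median log2 difference of 0.26, against -0.01 over all genes tested. In C2, 5 were higher and 3 lower, with a median of 0.19 against 0.00. Without either C2 library, 0 of 8 were called with the block in C1 and 0 in C2, and 1 of 8, KRT81, in the mean of the clones. Without C1 replicate 1 the blocked counts in C1, C2 and the mean were 4, 3 and 4 of 8, where 1436, 1734 and 2186 of 17129 genes were called. The added members in C1 and the mean were KRT8 and KRT18, both higher. Without C1 replicate 2 they were 1, 4 and 4, where 1150, 1649 and 2233 genes were called. Without WT replicate 1, C2 had 2 calls, KRT8 and KRT81.

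Libraries of C1 and WT did not overlap for 3 of 8 members, KRT18 and KRT19 higher and KRT81 lower, where 35.1% of all tested genes did not overlap. In C2 they did not overlap for 6 of 8, KRT8, KRT15, KRT18 and KRT19 higher and KRT6A and KRT81 lower, where the share of all genes was 34.8%. Over both clones 3 of 8 stood apart from WT, against 23.8% of all genes.

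The clones did not differ from each other in any tested keratin by edgeR. With the block 0 of 8 were called between C2 and C1 (0% of all genes), 0 had an unadjusted p under 0.05, and DESeq2 with the block called 0. Their libraries overlapped for all 8 members, where 14.6% of all genes did not overlap. The 95% interval of the C2 minus C1 difference with the block was -0.47 to 0.19 for KRT18, -0.88 to 0.27 for KRT81 and -0.79 to 1.39 for KRT6A.

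Some keratins differed between replicate 2 and replicate 1, as did many of all tested genes. In the fit with group and replicate number, 3 of 8 members were called between replicate 2 and replicate 1, where 24.7% of all genes were called. KRT80 rose by 0.81 (SE 0.14, edgeR adjusted p 0.0015) and KRT81 by 0.71 (SE 0.21, adjusted p 0.030), and KRT6A fell by 1.49 (SE 0.39, adjusted p 0.015). KRT7 at 0.32 and KRT15 at -0.46 did not pass, nor did KRT8 at -0.04, KRT18 at 0.02 and KRT19 at -0.14. Replicate 2 was on the same side of replicate 1 in all 3 groups for 4 of 8 members, KRT7, KRT80 and KRT81 higher and KRT6A lower, against 56.5% of all genes. Without either C2 library only KRT80 of the 3 was called. KRT80 was higher in replicate 2 by 1.11 in WT, 0.92 in C1 and 0.40 in C2 on the log2 scale. The proliferation genes moved with the replicate number too, and their part in these keratin differences was not tested.

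**Figure D4:**
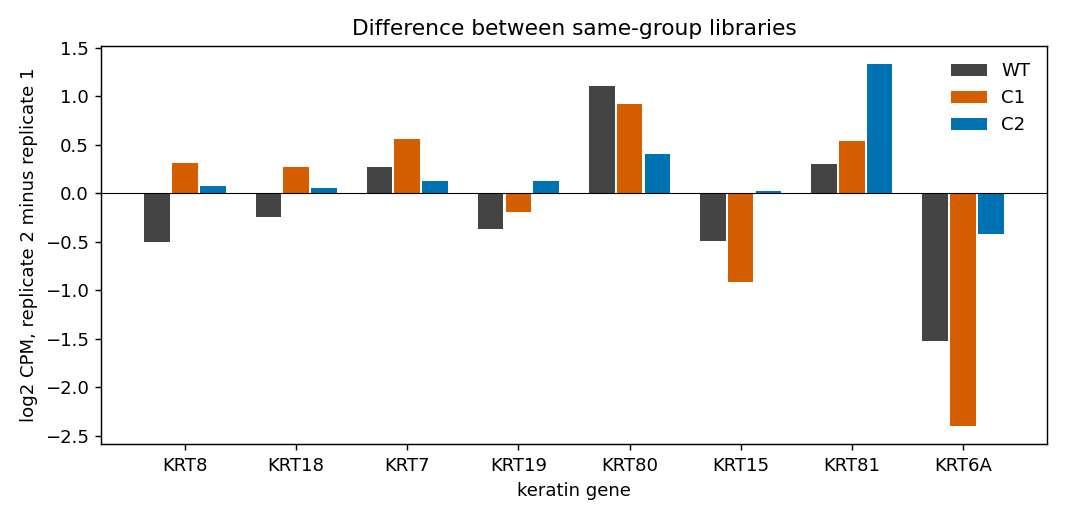
Difference in log2 CPM between replicate 2 and replicate 1 of each group for the 8 tested keratins; bars start at 0. KRT80 is positive in all 3 groups (1.11, 0.92 and 0.40) and KRT6A negative in all 3 (-1.53, -2.40 and -0.42), while KRT8 and KRT18 are negative in WT and positive in both clones.

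The keratin genes sit in 2 clusters, with type II genes and KRT18 on chromosome 12 and the other type I genes on chromosome 17. Genes near the chromosome 12 cluster had positive medians in the clones. The 50 tested genes flanking it had a median log2 difference, with the block, of 0.27 in C1 and 0.29 in C2. All 600 such genes of chromosome 12, the flanking 50 included and the keratins left out, had 0.18 in each. Genes in these sets, and in those of chromosome 17, were tested and had a mean log2 CPM above 2. The 50 genes flanking the chromosome 17 cluster had medians of 0.07 and 0.01. The differences of KRT8 and KRT18 (0.36 and 0.45 in C1, 0.28 and 0.31 in C2) were above the chromosome 12 flank median in C1 and near it in C2. KRT7 (0.22 in C1, -0.07 in C2) and KRT80 (0.25 and 0.09) were below it, in C2 more than in C1, and KRT81 and KRT6A were negative in both clones. KRT19 and KRT15, on chromosome 17, differed from WT by 0.37 and 0.27 in C1, and for C2 the values were 0.41 and 0.65. The part of the chromosome 12 medians in the keratin differences was not tested.

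**Figure D5:**
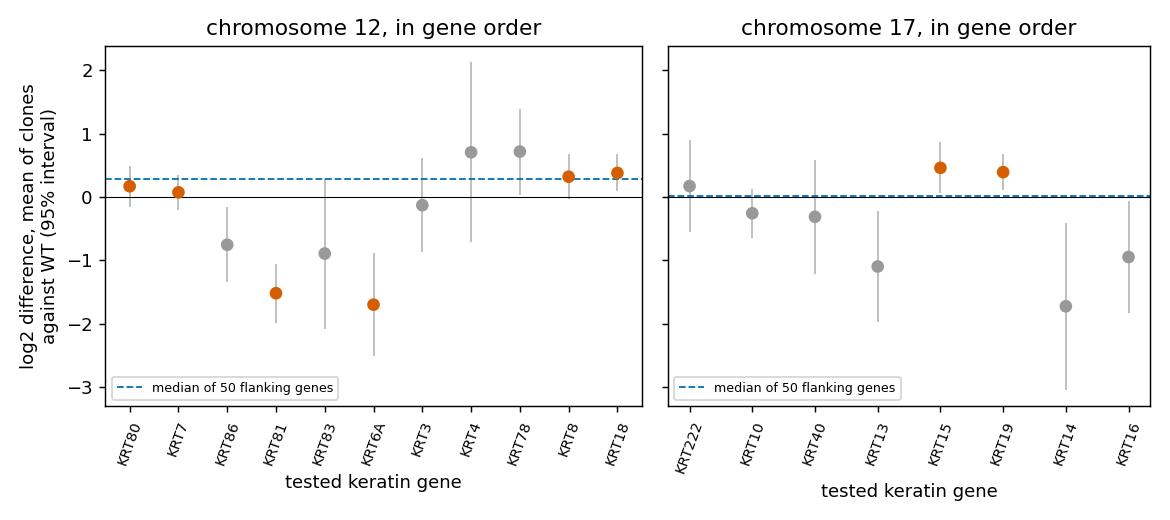
Log2 difference of the mean of the clones from WT, with the replicate block and 95% interval, for the tested keratins in gene order on chromosomes 12 and 17; members are orange, other keratins grey, and the dashed line is the median of the 50 flanking genes. KRT81 at -1.52 and KRT6A at -1.70 lie below the dashed line of chromosome 12 (0.29). KRT8 (0.32) and KRT18 (0.38) lie above that line, and KRT7 and KRT80 between it and 0.

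The other 45 coding keratin genes were mostly silent: 21 had no count in any library and 11 were tested. None was called in either clone in either fit. KRT4, a type II keratin of moist stratified epithelia, was the most abundant of them and ranged from 36.7 CPM in WT replicate 2 to 258 in C2 replicate 1. It was higher in replicate 1 than in replicate 2 in every group, by a log2 difference of -1.94 for replicate 2 (edgeR adjusted p 0.070). KRT14, the type I basal keratin that pairs with KRT5, had 21 and 17 counts in WT, 5 and 4 in the C1 pair and 1 and 16 in the C2 pair. Its log2 difference with the block was -2.16 in C1 (edgeR adjusted p 0.12) and -1.29 in C2 (0.35).

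Genes for the proteins that anchor keratin filaments were also listed. Of 19 tested genes of desmosomes and plakins, 5 fell in C1 and 2 in C2, with 0 rising in either, where 4.07% and 2.59% of all genes fell; without the block 0 were called in either. EPPK1, a plakin that binds keratin filaments, stood at 59.2 and 49.3 CPM in WT, 18.1 and 22.4 in the C1 pair and 19.1 and 31.9 in the C2 pair. Its blocked log2 difference was -1.44 in C1 (edgeR adjusted p 0.0031) and -1.13 in C2 (0.016). DSP, the desmoplakin that links keratins to desmosomes, had -1.08 in C1 (edgeR adjusted p 0.0047) and -0.44 in C2 (0.22). PLEC, a cytolinker between keratins and hemidesmosomes, had -0.87 in C1 (edgeR adjusted p 0.027) and -0.65 in C2 (0.10). COL17A1, a hemidesmosome collagen of basal cells, had -1.29 in C1 (edgeR adjusted p 0.011) and -1.04 in C2 (0.039). The C1 calls of PLEC and COL17A1 and the C2 calls of EPPK1 and COL17A1 were lost without either C2 library, that of PLEC also without WT replicate 1, and those of COL17A1 also without C1 replicate 2 in C1 and WT replicate 2 in C2. Leaving out 1 library moved the blocked C2 value of PLEC between -1.03 and -0.24. The blocked median over the 19 was -0.16 in C1 and -0.10 in C2, against -0.01 and 0.00 over all genes.

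Of 6 tested squamous genes with the block 2 fell in C1 and 1 in C2, where 4.07% and 2.59% of all genes fell, and 0 without it. S100A2, a calcium-binding protein of basal cells, had -1.80 in C1 (edgeR adjusted p 0.0024) and -1.39 in C2 (0.010, lost without either C2 library), and SFN, an adaptor of the epidermis, had -1.30 in C1 (0.0059) and -0.78 in C2 (0.073). Of 17 tested epithelial transcription and splicing regulators, 1 was called in C1 with the block and 0 in C2. The shares of all genes called were 7.03% and 4.54%. The call was ELF3, a factor of simple epithelia, at 0.64 in C1 (edgeR adjusted p 0.017), and it was lost without either C2 library. Of 8 tested other intermediate filament genes, 1 rose and 1 fell in C1 and 1 rose in C2 with the block, against those same shares. NES, nestin, rose by 0.93 in C1 (edgeR adjusted p 0.0043) and 1.19 in C2 (0.0011), calls that were lost without either C2 library. BFSP1, a filament of the lens, had -0.88 in C1 (edgeR adjusted p 0.033), a call lost without C1 replicate 2, WT replicate 2 or either C2 library. Airway basal markers, 6 of 8 tested, summed to 87.4 to 124 CPM in WT, 19.5 to 80.6 in C1 and 39.9 to 81.1 in C2. All 4 clone sums were below both WT sums, most of each being TP63 and COL17A1. Among all genes 23.8% stood apart from WT over both clones. TP63, which defines basal cells, was between 8.88 and 89.6 CPM and did not pass with the block (edgeR adjusted p 0.31 and 0.53). With the block 5 of the 6 were lower and 1 higher in each clone. By call, 3 fell in C1 and 2 in C2, where 4.07% and 2.59% of all genes fell. These were COL17A1 and TRIM29 in both and NGFR in C1. TRIM29 held 2 counts or fewer in each clone library, under the floor of 3 counts, so its differences are too low to read. Mesothelial markers, 3 of 6 tested, summed to 14.2 to 22.8 CPM in WT, 110 to 113 in C1 and 67.1 to 118 in C2, nearly all of it CALB2, with WT1 at 0 in every library. With the block CALB2 rose in both clones, and MSLN had -0.73 and -0.54, which did not pass. UPK3B held 13 and 37 counts in WT, 1 and 3 in the C1 pair and 1 and 8 in the C2 pair. All its clone libraries but C2 replicate 2 were at or under the floor of 3 counts. Its blocked differences (-3.64 in C1, edgeR adjusted p 0.0048, and -2.56 in C2, 0.022) are therefore too low to read. Of the 3 tested secretory and ciliated markers 1 rose with the block in each clone, where 507 of 17129 genes rose in C1 and 333 in C2. FOXJ1 rose by 1.46 in C1 (edgeR adjusted p 0.014) and 1.18 in C2 (0.047), and MUC5AC had 1.70 (0.056) and 1.72 (0.072). Their part in the differences of KRT6A and KRT81 was not tested. In bulk RNA, fewer cells making a gene and less RNA per cell cannot be told apart.

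Across the 6 libraries the pairs of keratins most alike in log2 CPM were KRT8 with KRT18 (Pearson r 0.93), KRT7 with KRT80 (0.84) and KRT15 with KRT19 (0.80). These values describe 6 libraries that share replicate number and group structure, and no p is attached. The genes named next were picked as the highest of 9990 values over 6 libraries, which favours a high r for any keratin. Among 9990 genes, those most like KRT81 were TECPR1 (0.993) and UVSSA (0.991), and those most like KRT80 were DPH3 (0.996) and CGRRF1 (0.995). For KRT15 they were ARNT2 (0.996) and PTPLAD2 (0.994), and for KRT18 LTBP3 (0.994) and EHMT1 (0.993). KRT7 was most like PCBP4 (0.994) and CYB561D1 (0.991), KRT8 like RABL6 (0.984) and PEBP1 (0.980), KRT19 like STAT2 (0.991) and ZNF302 (0.990), and KRT6A like GNPAT (0.985) and FABP5 (0.985).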

How the data were processed

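The authors deposited raw read counts per gene for 6 libraries, with 5 HTSeq totals left out here. Per the submitters' processing notes, cutadapt 1.6, STAR 2.5.0a, HTSeq 0.5.3 and hg19 were used; annotation release and strand setting are not given in the sources used here. Per the labels, reads were 50-nt pairs. In R 4.3.3 with edgeR 4.0.16 (limma 3.58.1), genes kept by filterByExpr (17129) were scaled by TMM and tested by the quasi-likelihood F test with all 6 libraries in 1 fit, with Benjamini-Hochberg adjustment over all genes. The replicate number was also fitted as a block, since same-numbered libraries' deviations correlated by 0.584, 0.634 and 0.701. The pairing comes from the data alone. Residual degrees of freedom were 3 without the block and 2 with it. With the block, p-values measure the spread left over all groups after the mean replicate difference is removed. DESeq2 1.42.0, other scalings, other filters and leaving out each library were alternatives. Scripts were tested on simulated data. Lengths, gene order and sequences came from GENCODE 29 (GRCh38), matched for 97.3% of tested genes, so no coordinates are given. Every member is named; from each other list up to 4 genes called with the block, or the 2 highest in level. Members and lists were chosen with earlier results of these data known. One sequence comparison is not reported here.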

Additional observations from a re-analysis of the deposited data

How the results depend on the processing

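Without the block the 8 tested keratins gave 0 calls in C1, C2 and the mean of the clones, and the fits with the replicate block gave 2, 1 and 2, also with DESeq2 and with RLE size factors. With no filter the counts were 0, 1 and 2, and 5 for replicate 2 against replicate 1 in place of 3; DESeq2 gave 1 for the mean of the clones. Leaving out 1 library at a time, blocked keratin calls ran from 0 to 4 in C1, 0 to 4 in C2, 1 to 4 in the mean of the clones and 1 to 3 between replicates. Genes called in C1 were 2 without the block, 270 by DESeq2, 296 with no filter, 1 with the 2 groups alone, 1204 with the block, 1193 with block and RLE and 1158 with DESeq2 and block. In C2 these were 2, 209, 209, 0, 777, 760 and 839, and in the mean of the clones, which needs all 3 groups, 34, 393, 436, 1669, 1655 and 1520 without the setting of 2 groups alone. C2 against C1 had 0 genes, and 20 by DESeq2 with the block. Leaving out 1 library gave 0 to 1 genes in C1, 0 to 0 in C2 and 0 to 3 in the mean without the block, and with it 190 to 1582, 8 to 1734, 203 to 2233, 0 to 345 between clones and 702 to 4624 between replicates. The cause of these moves was not tested.

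KRT80 in C2 turned from -0.01 to 0.09 with the replicate block, also with DESeq2 and with RLE. Other changes of sign came from leaving out 1 library, for differences that had not passed the test in that fit. Without the block, ranges in C1 were -1.73 to 0.03 for BFSP1, -0.22 to 0.69 for KRT15, -0.16 to 2.22 for KRT4, -0.07 to 0.50 for KRT7 and -0.31 to 0.88 for KRT80. In C2 they were -1.83 to 0.13 for BFSP1, -0.01 to 0.71 for ELF3, -1.32 to 2.05 for KRT4, -0.21 to 0.06 for KRT7 and -0.46 to 0.65 for KRT80. In the mean of the clones they were -0.08 to 0.22 for KRT7 and -0.34 to 0.77 for KRT80. Between C2 and C1 they were -0.09 to 0.82 for KRT15, -0.06 to 0.11 for KRT19, -0.73 to 2.01 for KRT6A, -0.24 to 0.09 for KRT8, -0.63 to 0.30 for KRT80 and -1.08 to 0.30 for KRT81.

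With the block, KRT15 in C1 ran from -0.10 to 0.59. In C2 the ranges were -0.11 to 0.77 for KRT4, -0.22 to 0.04 for KRT7, -0.05 to 0.65 for KRT8 and -0.22 to 0.36 for KRT80, and in the mean of the clones -0.02 to 0.15 for KRT7, -0.01 to 0.68 for KRT8 and -0.05 to 0.40 for KRT80. Between C2 and C1 they were -0.02 to 0.74 for KRT15, -0.33 to 0.05 for KRT18, -0.20 to 0.24 for KRT19, -0.34 to 1.42 for KRT6A, -0.33 to 0.21 for KRT8, -0.48 to 0.10 for KRT80 and -0.85 to 0.11 for KRT81. Between replicates they were -0.10 to 0.16 for KRT18 and -0.22 to 0.19 for KRT8. With 2 libraries per group, the depth limits KRT5, KRT6A and KRT17 most.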

Other observations

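A keratin pseudogene showed larger differences than any tested keratin gene, and was chosen after its values were seen. KRT8P14, a copy of KRT8 on the X chromosome, had 261 and 73 counts in WT, 16 and 3 in the C1 pair and 8 and 9 in the C2 pair. Its log2 difference with the replicate block was -4.23 in C1 (edgeR adjusted p 0.00014) and -4.07 in C2 (0.00026), and without the block the adjusted p was 0.25 and 0.32. All 4 clone libraries lay below both WT libraries, while KRT8 itself was not lower in the clones.

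KRT16P2, a pseudogene of KRT16 on chromosome 17 and likewise chosen after its values were seen, held 1403 to 3936 counts per library, while KRT16 itself held 8 to 65. With the block its log2 difference was 0.80 in C1 (edgeR adjusted p 0.026) and 0.51 in C2 (0.15), and without it the adjusted p was 0.58 and 0.86.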
